A study of Homo sapiens with 6 samples.

Results

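Secretogranin II (SCG2) and 9 other genes of the secretory granule were followed through an RNA-seq comparison of Cisplatin-treated HK-2 cells with and without NAT10 siRNA. The 10 genes were taken by symbol from the 62754 genes of the count table, and 8 of them had at least 10 counts in 3 libraries. SCG5 and VGF passed this limit with the fewest counts, at 13 to 38 and 62 to 80 counts per library. PCSK5, with 2 to 7 counts, and PCSK1, with 0, did not pass it and are given as low. The set was selected on values of the same comparison, in which SCG2 had the largest rise among the 12304 tested genes that averaged at least 5 CPM. The other 9 were chosen for their role in granules with results of these data known. The values of all 10 genes are therefore a description, without a test.

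HK-2 is an immortalised line of human kidney tubule epithelium. Both groups received Cisplatin, a platinum drug that damages the tubule, and the labels give neither its dose nor its duration. The Methods settle on 20 μM over 24 hours for later work with the line. The CP+siNC group carried negative control siRNA and the CP+siNAT10 group siRNA against NAT10, with 3 libraries in each. All CP+siNAT10 libraries received the NAT10 siRNA, so loss of NAT10 and other effects of that siRNA cannot be told apart. The labels number the samples 1 to 3 as cells and do not say whether they were separate cultures, so errors and p-values measure the spread between these samples, which may be technical. In total, CP+siNC replicates 1 to 3 held 19321665, 21602988 and 19464027 counts, and CP+siNAT10 replicates 1 to 3 held 20793709, 21531774 and 25192736. Values in CPM are counts scaled to a library of 1000000 after TMM correction of the library size, and log2 fold changes are CP+siNAT10 against CP+siNC.

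Granins are acidic proteins that aggregate with peptide hormones in the trans-Golgi network and are stored with them in dense-core granules, which release their content on a calcium signal. Prohormone convertases cut the precursors at paired basic residues, carboxypeptidases trim the exposed basic ends, and an amidating enzyme finishes many of the peptides. Endocrine cells and neurons are the classical users of this pathway. FURIN, PCSK5, CPD and PAM are also made by many cells without dense-core granules, where convertases act on growth factors and receptors along the constitutive secretory route.

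NAT10, an RNA acetyltransferase and the target of the siRNA, was lower in every CP+siNAT10 library. Its gene (ENSG00000135372) lies at chr11:34105617-34147670 on GRCh38. NAT10 stood at 75.8, 71.4 and 73.2 CPM in CP+siNC and at 41.3, 40.5 and 42.5 CPM in CP+siNAT10. The groups did not overlap, and the level in CP+siNAT10 was 56.5% of that in CP+siNC (log2 fold change -0.82, SE 0.04, edgeR quasi-likelihood test, Benjamini-Hochberg adjusted p = 2.79e-15). In these bulk libraries, fewer cells expressing a gene and less of its RNA per cell cannot be told apart.

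The members are spread over the genome. SCG2 (ENSG00000171951) lies at chr2:223596940-223602361 on the minus strand, and its principal transcript in GENCODE 29 has 2 exons. CHGB (ENSG00000089199) lies at chr20:5911510-5925353 with 5 exons, VGF (ENSG00000128564) at chr7:101162509-101165569 with 2 exons, and SCG5 (ENSG00000166922) at chr15:32641676-32697092 with 6 exons. PCSK1 and PAM share chromosome 5, and SCG5 and FURIN share chromosome 15. CPE (ENSG00000109472) is at chr4:165361194-165498547, CPD (ENSG00000108582) on chromosome 17 and PCSK5 (ENSG00000099139) on chromosome 9.

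Several granule genes are known to respond to cyclic AMP through CREB, a factor that binds the palindrome TGACGTCA or its core TGACG, so the promoters are shown here beside the values that follow. The RefSeq promoter table (GRCh38.p14, 250 bases before to 50 after each start) matched 8 of the 10 members in 15 windows, with SCG2 and CHGB not among them. Both strands were searched for TGACGTCA, for TGACG, which is part of it, and for the AP-1 sequence TGANTCA. TGACGTCA was found for 2 members, VGF and PCSK1, beginning 79 and 77 bases before the start, in 2 of the 15 windows, and 1.85% of all 35116 windows held it. TGACG was found in 7 of the 15 windows, 1 for each matched member except FURIN, and in 24.6% of all windows. TGANTCA was found in 1 of the 15 windows, for CPD, and in 7.71% of all windows. The stretches below run 5′ to 3′ in the direction of the gene, with each TGACGTCA or TGACG in capitals. VGF is on the minus strand at chr7:101165590-101165709, PCSK1 on the minus strand at chr5:96433269-96433388, CPE on the plus strand at chr4:165378768-165378907 and SCG5 on the plus strand at chr15:32641570-32641709. They are shown because these 4 genes had different outcomes in the counts, VGF with overlapping groups, PCSK1 with no reads, CPE higher and SCG5 lower in CP+siNAT10. The RefSeq starts of CPE and PCSK1 lie inside the longer intervals that the count table gives for these genes. A match describes the letters only.
VGF: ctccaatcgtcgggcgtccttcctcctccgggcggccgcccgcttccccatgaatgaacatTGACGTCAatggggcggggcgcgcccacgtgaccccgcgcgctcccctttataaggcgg
PCSK1: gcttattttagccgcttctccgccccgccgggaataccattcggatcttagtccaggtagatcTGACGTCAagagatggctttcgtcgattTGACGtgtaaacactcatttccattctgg
CPE: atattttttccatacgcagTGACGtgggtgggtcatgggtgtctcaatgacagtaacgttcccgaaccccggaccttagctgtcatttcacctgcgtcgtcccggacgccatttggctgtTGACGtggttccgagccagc
SCG5: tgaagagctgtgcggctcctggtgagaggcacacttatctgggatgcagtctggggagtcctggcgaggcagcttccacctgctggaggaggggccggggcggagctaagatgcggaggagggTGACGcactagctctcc
In VGF and PCSK1 the palindrome lies at a similar distance from the start, and in PCSK1 a further TGACG follows it. CPE carries TGACG at 221 and 120 bases before the start, and SCG5 carries it at 17 bases before the start.

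SCG2, a granin and the precursor of the peptide secretoneurin, was several times higher with NAT10 siRNA. It had 138, 211 and 223 counts in the CP+siNC libraries and 977, 1156 and 1253 counts in the CP+siNAT10 libraries. In CPM these were 7.33, 9.86 and 11.6 in CP+siNC and 46.4, 52.9 and 49.4 in CP+siNAT10. Every CP+siNAT10 library was above every CP+siNC library, and the low library within CP+siNC was replicate 1. The means were 9.59 ± 2.14 and 49.6 ± 3.24 CPM (SD, n = 3 each), a 5.16-fold difference (log2 fold change 2.37, SE 0.08). The next rises among genes of at least 5 CPM were those of H2BC5, at 2.08, and SIPA1L2, at 1.77 on the log2 scale. SCG2 varied more between the CP+siNC libraries than most genes of a like level. Its coefficient of variation there was 22.3%, against a median of 6.46% for the 4788 genes within 2-fold of its level, and 99.1% of those genes had a lower one. In CP+siNAT10 it was 6.54%, against a median of 3.33% for 4578 such genes. The SE of 0.08 comes from a fit that shares the estimate of spread across genes, so it may understate the uncertainty for SCG2. Without CP+siNC replicate 1 the log2 fold change of SCG2 was 2.21, and without CP+siNC replicate 3 it was 2.51.

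**Figure D1:**
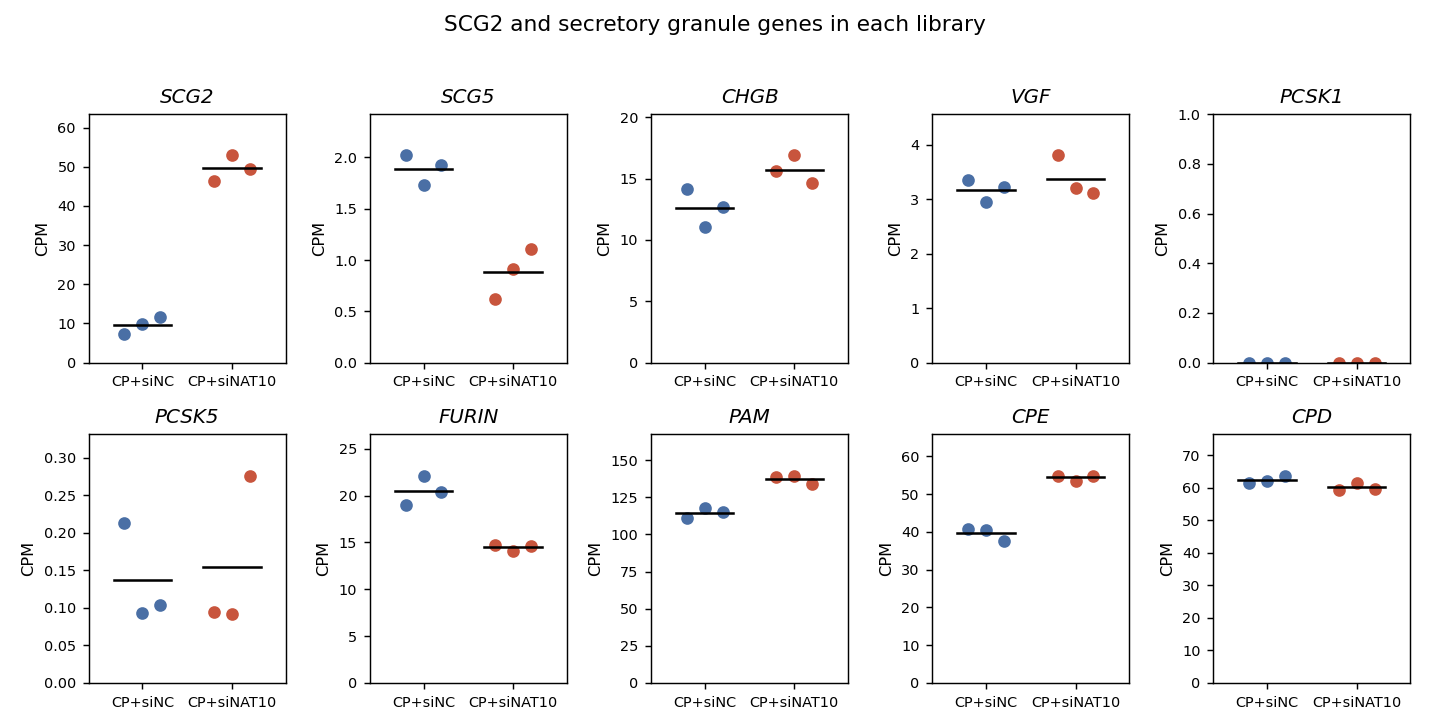
CPM of each of the 10 genes in the 6 libraries, with points for single libraries in the order of their replicate number, black lines for group means and a linear axis from 0 that differs between genes. The SCG2 points of CP+siNAT10 lie between 46.4 and 52.9 CPM and those of CP+siNC between 7.33 and 11.6 CPM, while the groups overlap for VGF, CPD and PCSK5 and PCSK1 is at 0 throughout.

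The other granins did not share the size of this difference. CHGB, chromogranin B, a core granule protein, had 14.2, 11.1 and 12.7 CPM in CP+siNC and 15.6, 16.9 and 14.6 CPM in CP+siNAT10. All CP+siNAT10 libraries were above all CP+siNC libraries, by a narrow margin between CP+siNC replicate 1 and CP+siNAT10 replicate 3. The CHGB means were 12.6 ± 1.55 and 15.7 ± 1.13 CPM (SD, n = 3 each), a 1.24-fold difference (log2 fold change 0.32, SE 0.08). VGF, a granin-like neuropeptide precursor induced by growth factors in neurons, had 3.35, 2.94 and 3.22 CPM in CP+siNC and 3.80, 3.20 and 3.12 CPM in CP+siNAT10. The groups overlapped, with a log2 fold change of 0.09 (SE 0.14) and a 95% interval from -0.21 to 0.38.

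SCG5, also called 7B2, a chaperone and inhibitor of the convertase PCSK2, went the other way. It had 38, 37 and 37 counts in CP+siNC and 13, 20 and 28 counts in CP+siNAT10, or 2.02, 1.73 and 1.92 CPM against 0.617, 0.915 and 1.10 CPM. No library of CP+siNAT10 reached those of CP+siNC, and the means were 1.89 ± 0.148 and 0.879 ± 0.246 CPM (SD, n = 3 each), with a log2 fold change of -1.07 (SE 0.23). The counts are few, and the spread within CP+siNAT10 was 27.9% of its mean. Leaving out CP+siNAT10 replicate 3 gave -1.28, and leaving out CP+siNAT10 replicate 1 gave -0.89. SCG5 is also uncertain because a readthrough gene, ARHGAP11A-SCG5 (chr15:32613860-32697077), runs over it on the same strand, and an antisense gene, SCG5-AS1, overlaps it with 1 to 5 counts. ARHGAP11A-SCG5 had 2661 to 3436 counts per library, while ARHGAP11A alone, which lies before SCG5, had 3056 to 3938. Their log2 fold changes were -0.43 (SE 0.04) and -0.42 (SE 0.04). How a read on exons shared by these genes was assigned is not given in the sources used here, so reads of SCG5 could have been split. Of the other members, CPE overlaps HADHAP1, with 2 to 5 counts per library on the opposite strand, and the genes that overlap PCSK1 and PCSK5 had at most 1 count.

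Among the convertases, the enzyme most typical of endocrine granules was not seen. PCSK1 (ENSG00000175426, chr5:96390333-96434143), which cleaves prohormones in the regulated pathway, had 0 counts in all 6 libraries. A count of 0 allows up to 3 counts, which is 0.118 to 0.159 CPM depending on the library, counting error only. PCSK5, a convertase of both pathways, had 4, 2 and 2 counts in CP+siNC and 2, 2 and 7 counts in CP+siNAT10, and a difference was not detectable at this depth. FURIN (ENSG00000140564, chr15:90868588-90883457), the convertase of the trans-Golgi network and cell surface, was measured well. It had 18.96, 22.1 and 20.4 CPM in CP+siNC and 14.7, 14.1 and 14.6 CPM in CP+siNAT10. FURIN was lower in every CP+siNAT10 library, at 14.5 ± 0.335 against 20.5 ± 1.59 CPM (SD, n = 3 each), or 70.4% of the CP+siNC level (log2 fold change -0.51, SE 0.07).

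The trimming and amidating enzymes had the highest levels per length of the members in CP+siNC. CPE, the carboxypeptidase of the regulated pathway, had 40.8, 40.5 and 37.6 CPM in CP+siNC and 54.9, 53.6 and 54.8 CPM in CP+siNAT10. Again all CP+siNAT10 libraries were above, and the difference was 1.37-fold (log2 fold change 0.46, SE 0.05). PAM (ENSG00000145730, chr5:102753981-103029464), which makes the C-terminal amide of many peptides, had 111.4, 117.6 and 114.8 CPM in CP+siNC and 139.0, 139.6 and 133.8 CPM in CP+siNAT10. Here too the groups did not overlap, with a smaller difference of 1.199-fold (log2 fold change 0.26, SE 0.04). CPD, a carboxypeptidase of the trans-Golgi network that acts in the constitutive pathway, had the smallest difference of the measured members with all libraries in use. It had 61.4, 62.1 and 63.8 CPM in CP+siNC and 59.5, 61.5 and 59.6 CPM in CP+siNAT10. The groups overlapped, with a log2 fold change of -0.05 (SE 0.04) and a 95% interval from -0.14 to 0.03. Its place beside VGF turned with single libraries. Without CP+siNC replicate 2 the log2 fold change was 0.03 for VGF and -0.06 for CPD, and without CP+siNAT10 replicate 1 it was -0.00 and -0.04. With library size scaling alone, PAM was at 0.30 and CPD at -0.02 on the log2 scale.

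Side by side, the 8 measured members therefore differed in both directions. In 4 of them (SCG2, CHGB, PAM and CPE) every CP+siNAT10 library was above every CP+siNC library, in 2 (SCG5 and FURIN) every library was below, and in 2 (VGF and CPD) the groups overlapped. Over all 19874 tested genes, all CP+siNAT10 libraries were above in 25.7% and below in 25.7%. The same 4 and 2 members were past an adjusted p of 0.05 in the fit across all genes, where 44.1% of genes were past it, 21.8% higher and 22.3% lower. These shares are 4331 and 4440 genes, and with library size scaling alone 5050 were called higher and 3786 lower, so the balance of directions depends on the scaling. With a log2 fold change over 1 in size as a further limit, SCG2 was past both limits above and SCG5 below, against 0.951% and 1.38% of tested genes. Nothing is read from these counts, since the members were selected on the same comparison. The central 95% of log2 fold changes of all tested genes ran from -0.83 to 0.76, and of the members only SCG2 and SCG5 lay outside it.

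**Figure D2:**
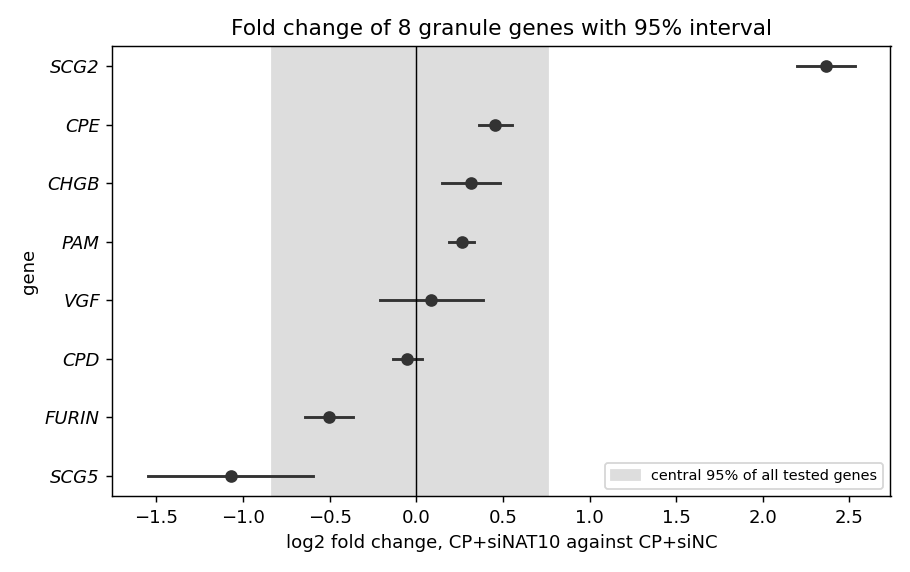
Log2 fold change, CP+siNAT10 against CP+siNC, of the 8 measured members, with a grey band for the central 95% of all tested genes. Bars show the 95% interval from the edgeR fit, which shares the estimate of spread across genes and may be too narrow for SCG2. SCG2 at 2.37 lies to the right of the band and SCG5 at -1.07 to its left, and the interval of SCG5 reaches into it.

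Levels of different genes were compared as CPM per kilobase of the gene length in the count table. This length, 2577 bases for SCG2, 7523 for PAM and 3119 for CPE, may differ from that of the transcripts expressed. The order between genes depends on it. In CPM without length, the CP+siNAT10 means were 49.6 for SCG2, 137.5 for PAM and 54.4 for CPE. In CP+siNC the order was PAM at 15.2 ± 0.413, CPE at 12.7 ± 0.559, CPD at 4.99 ± 0.097, FURIN at 4.13 ± 0.321, SCG2 at 3.72 ± 0.829, CHGB at 2.84 ± 0.350, VGF at 1.18 ± 0.077 and SCG5 at 0.860 ± 0.067 CPM per kilobase (SD, n = 3 each). FURIN overlapped SCG2 there, and SCG2 overlapped CHGB, while the other neighbours in this order did not overlap. PAM, CPE and CPD thus stood above the granins in the control libraries. In CP+siNAT10 SCG2 was at 19.2 ± 1.26 CPM per kilobase, the highest mean of the members, and overlapped PAM at 18.3 ± 0.419. CPE followed at 17.5 ± 0.225 and CPD at 4.81 ± 0.093 CPM per kilobase. CHGB, at 3.53 ± 0.254, was then above FURIN, at 2.92 ± 0.067 CPM per kilobase, and VGF and SCG5 kept the last places at 1.26 ± 0.139 and 0.400 ± 0.112 CPM per kilobase. In CP+siNAT10 only SCG2 and PAM overlapped among neighbours.

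**Figure D3:**
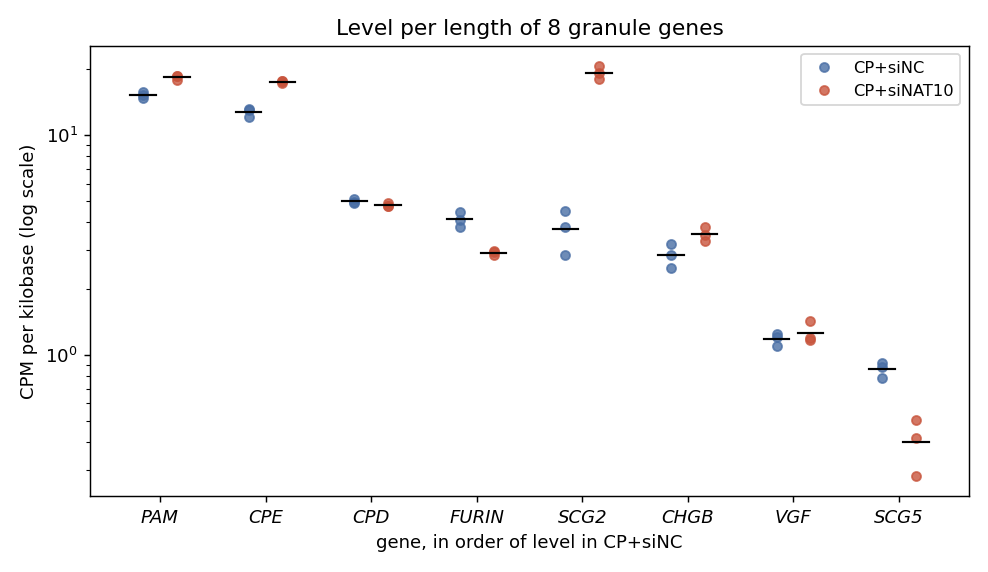
Level per length of the 8 measured members in CPM per kilobase on a log axis, with points for libraries and black lines for group means. SCG2 changes place from the fifth, at 3.72, to the highest, at 19.2 CPM per kilobase, next to PAM and CPE. The order between genes depends on the gene length used.

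The make-up of the granins differed between the groups. SCG2 was chosen for its rise in this comparison, so a higher share of SCG2 was set by that choice. Of the summed level per length of SCG2, CHGB, VGF and SCG5, SCG2 made up 34.7%, 46.6% and 47.7% in the CP+siNC libraries and 77.6%, 79.1% and 79.5% in the CP+siNAT10 libraries. CP+siNC replicate 1 was again the lowest. The ratio of SCG2 to CHGB level per length was 1.34 ± 0.384 in CP+siNC and 5.46 ± 0.347 in CP+siNAT10 (SD, n = 3 each). Summed, the 4 granins had 27.3 ± 1.93 CPM in CP+siNC and 69.5 ± 3.89 CPM in CP+siNAT10, and without SCG2 they had 17.7 ± 1.90 and 20.0 ± 1.07 CPM (SD, n = 3 each). The sum of CPE, PAM, CPD and FURIN was 237.2 ± 4.89 CPM in CP+siNC and 266.6 ± 3.31 CPM in CP+siNAT10. Nearly all of the difference in summed granin CPM was thus that of SCG2.

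Whether the rest of the granule pathway was present was examined with 7 gene lists that do not include the members. Of 180 listed genes, 110 passed the filter on low counts. Of these, 31 were higher and 28 lower in CP+siNAT10 at an adjusted p under 0.05, which is 53.6% against 44.1% of all tested genes, and 51 were not called. With library size scaling alone, 35 were called higher and 24 lower. The median log2 fold change was -0.01, and that of all tested genes was 0.01. Called genes of both directions were found in 5 of the 7 lists.

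**Figure D4:**
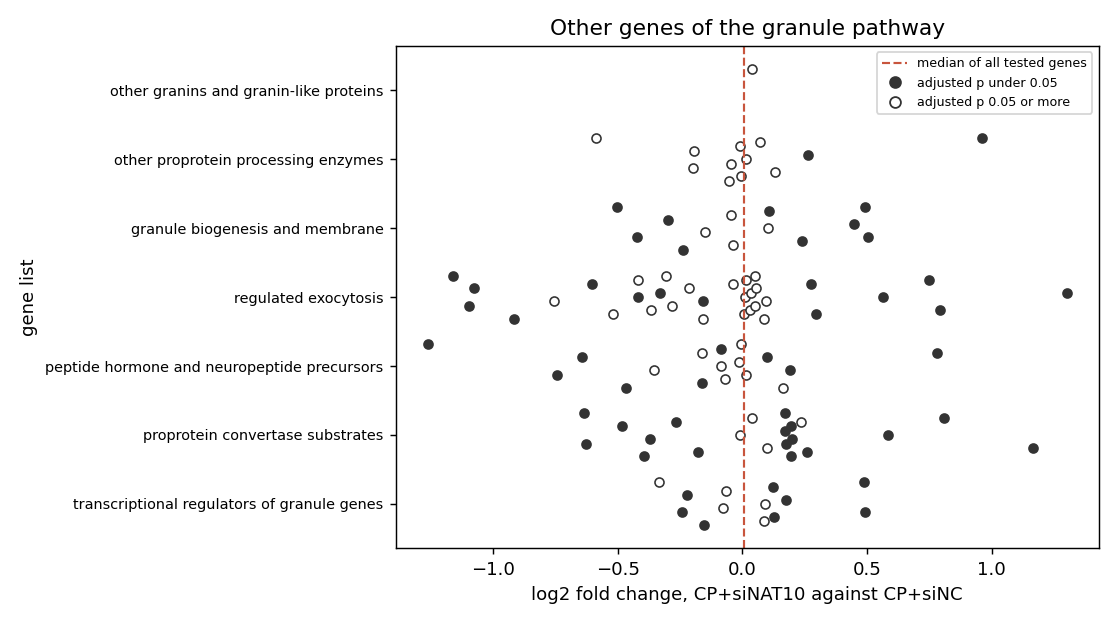
Log2 fold change, CP+siNAT10 against CP+siNC, of the tested genes of each pathway list, filled where the adjusted p was under 0.05, with a dashed line at the median of all tested genes. Points spread vertically only for legibility, and called genes lie on both sides in each list except the granins, where 1 gene was tested and not called, and the processing enzymes, where the 2 called genes are higher.

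Of the other granins and granin-like proteins, 1 of 3 was tested. PCSK1N, an inhibitor of PCSK1, had 2.06 ± 0.267 CPM in CP+siNC and 2.12 ± 0.316 CPM in CP+siNAT10 (SD, n = 3 each), with a log2 fold change of 0.04 (SE 0.18, edgeR adjusted p = 0.885). CHGA, the best known granin, had 0 to 3 counts and SCG3 0 to 2 counts.

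Of 17 other processing enzymes 12 were tested, with 2 higher, the other 10 not called and a median log2 fold change of -0.01. Under some alternatives, among them leaving out CP+siNC replicate 1, 1 gene of the list was also called lower. PCSK7, a convertase of the constitutive pathway, rose from 32.6 ± 0.899 to 39.1 ± 0.407 CPM (SD, n = 3 each; log2 fold change 0.26, SE 0.05, edgeR adjusted p = 4.19e-05). All CP+siNAT10 libraries were above all CP+siNC libraries. PCSK2, the partner of PCSK1 in endocrine granules, had 0 to 2 counts. The highest levels per length in CP+siNC were those of CTSL, a lysosomal protease that can also process prohormones, at 72.9 CPM per kilobase, and RNPEP, an aminopeptidase of basic residues, at 13.2 CPM per kilobase. Their log2 fold changes were 0.01 (SE 0.03) and -0.04 (SE 0.04), and neither was called.

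Of 20 genes of granule biogenesis and membrane 13 were tested, with 5 higher, 4 lower and a median log2 fold change of -0.04. VPS41, which takes part in sorting to granules and lysosomes, rose from 35.5 ± 0.343 to 49.8 ± 2.82 CPM (SD, n = 3 each; log2 fold change 0.49, SE 0.05, edgeR adjusted p = 1.96e-09). EIPR1, a partner of the EARP complex in granule cargo sorting, rose from 2.54 ± 0.472 to 3.60 ± 0.585 CPM (log2 fold change 0.51, SE 0.16, edgeR adjusted p = 0.0125). VAMP4, a SNARE of the trans-Golgi network, fell from 21.0 ± 0.892 to 14.8 ± 0.557 CPM (log2 fold change -0.50, SE 0.06, edgeR adjusted p = 2.2e-07). SORT1, the sorting receptor sortilin, fell from 14.9 ± 1.27 to 11.1 ± 0.927 CPM (log2 fold change -0.42, SE 0.08, edgeR adjusted p = 9.28e-05). For these 4 genes the groups did not overlap. CCDC186, which acts with EARP in granule maturation, had the highest level per length in the list, 21.1 CPM per kilobase in CP+siNC, and rose by little (log2 fold change 0.11, SE 0.04, edgeR adjusted p = 0.0161). STX6, a SNARE of maturing granules, was next at 9.51 CPM per kilobase and was not called (log2 fold change -0.04, SE 0.04). The call of EIPR1 was lost with DESeq2 (adjusted p = 0.0675), if CP+siNC replicate 1 was left out (log2 fold change 0.37) and if CP+siNAT10 replicate 3 was left out (0.35), and over all 12 alternatives the adjusted p of edgeR or DESeq2 was between 0.00551 and 0.12. That of CCDC186 was lost if CP+siNC replicate 2 (log2 fold change 0.07) or CP+siNAT10 replicate 3 (0.09) was left out, with edgeR or DESeq2 adjusted p between 0.00094 and 0.181 over the alternatives. The number of genes called higher in this list was between 2 and 6, the lowest if CP+siNAT10 replicate 3 was left out.

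Of 49 genes of regulated exocytosis 33 were tested, with 6 higher, 8 lower and a median log2 fold change of -0.04. Genes past both limits were SYTL3 above and EXPH5, SYT11 and DOC2A below. SYTL3, a RAB27 effector, rose from 0.850 ± 0.214 to 2.07 ± 0.119 CPM (SD, n = 3 each; log2 fold change 1.30, SE 0.23, edgeR adjusted p = 2.79e-05). EXPH5, another RAB27 effector, fell from 13.6 ± 0.378 to 6.47 ± 0.695 CPM (log2 fold change -1.07, SE 0.09, edgeR adjusted p = 7.33e-11). Without CP+siNAT10 replicate 3 the log2 fold change of EXPH5 was -0.98, short of the fold limit. SYT11, a synaptotagmin that does not bind calcium, fell from 10.5 ± 0.967 to 4.91 ± 0.593 CPM (log2 fold change -1.10, SE 0.11, edgeR adjusted p = 1.23e-09). DOC2A, a calcium sensor of vesicle fusion, fell from 0.958 ± 0.174 to 0.430 ± 0.085 CPM (log2 fold change -1.16, SE 0.32, edgeR adjusted p = 0.00366). RPH3AL, a RAB3 and RAB27 effector, rose from 2.84 ± 0.645 to 4.86 ± 0.622 CPM (log2 fold change 0.75, SE 0.15, edgeR adjusted p = 0.00017). In none of these 5 genes did the groups overlap. RALA, a small GTPase that acts with the exocyst, had the highest level per length in the list, 38.1 CPM per kilobase in CP+siNC, and rose by 0.28 on the log2 scale (SE 0.03, edgeR adjusted p = 1.09e-07). VAMP3, a SNARE of recycling vesicles, was next at 22.7 CPM per kilobase and was not called (log2 fold change -0.04, SE 0.04).

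Precursors of hormones and neuropeptides are the cargo of such granules. Of 48 peptide hormone and neuropeptide precursors 17 were tested, with 3 higher, 6 lower and a median log2 fold change of -0.09. EDN2, an endothelin precursor, was past both limits and fell from 1.37 ± 0.260 to 0.574 ± 0.129 CPM (SD, n = 3 each; log2 fold change -1.26, SE 0.28, edgeR adjusted p = 0.000427), with no overlap of the groups. EDN1, another endothelin precursor, is not covered by the naming rule and was named after its value was seen. It fell from 11.5 ± 0.682 to 8.34 ± 0.909 CPM (log2 fold change -0.46, SE 0.09, edgeR adjusted p = 0.000107), with no overlap of the groups. Its values under the alternatives are not given here. The remaining named calls of this list were nearer the limit. NUCB2, the precursor of nesfatin, had a log2 fold change of 0.10 (SE 0.04, edgeR adjusted p = 0.0366) with overlapping groups. NMB, neuromedin B, had -0.74 (SE 0.24, edgeR adjusted p = 0.0136), and NPPC, the precursor of C-type natriuretic peptide, -0.64 (SE 0.24, edgeR adjusted p = 0.0306) with overlapping groups. STC2, stanniocalcin 2, had the highest level per length in CP+siNC, 57.1 CPM per kilobase, and a log2 fold change of -0.09 (SE 0.03, edgeR adjusted p = 0.0336). NUCB1 was next at 33.8 CPM per kilobase and was not called (log2 fold change -0.01, SE 0.03). In NMB and STC2 the groups did not overlap. The calls of NUCB2, NMB, NPPC and STC2 could each be lost by leaving out 1 library. NUCB2 lost its call when CP+siNC replicate 2 (log2 fold change 0.06) or 3 (0.10) or CP+siNAT10 replicate 2 (0.11) or 3 (0.07) was left out, and with DESeq2. NMB lost it when CP+siNC replicate 1 (-0.66) or CP+siNAT10 replicate 2 (-0.55) or 3 (-0.64) was left out, and with DESeq2. NPPC lost it when CP+siNC replicate 1 (-0.52) or 3 (-0.49) or CP+siNAT10 replicate 1 (-0.61), 2 (-0.64) or 3 (-0.68) was left out, and with DESeq2. STC2 lost it when CP+siNC replicate 3 (-0.07) or CP+siNAT10 replicate 1 (-0.08) or 2 (-0.08) was left out, with no filter beyond a count above 0 (-0.07) and with library size scaling alone (-0.05). The highest adjusted p of edgeR or DESeq2 over the 12 alternatives was 0.25 for NUCB2, 0.0933 for NMB, 0.152 for NPPC and 0.235 for STC2. Over the alternatives, between 0 and 3 genes of the list were called higher and between 2 and 7 lower, and leaving out CP+siNAT10 replicate 2 gave the fewest in both directions.

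Convertase substrates of the constitutive pathway were better represented. Of 24 listed 21 were tested, with 10 higher, 7 lower and a median log2 fold change of 0.17. ITGA6, an integrin chain cut by convertases, was past both limits and rose from 8.64 ± 0.694 to 19.4 ± 1.78 CPM (SD, n = 3 each; log2 fold change 1.16, SE 0.08, edgeR adjusted p = 2.8e-12). INHBA, the activin A chain, had the highest level per length in CP+siNC, 71.9 CPM per kilobase, and rose by 0.81 on the log2 scale (SE 0.03, edgeR adjusted p = 1.53e-17). TGFB1, whose precursor is cut by FURIN, fell from 76.2 ± 3.38 to 49.1 ± 1.57 CPM (log2 fold change -0.64, SE 0.04, edgeR adjusted p = 1.01e-12). VEGFC, a lymphatic growth factor, fell from 11.2 ± 1.10 to 7.33 ± 1.16 CPM (log2 fold change -0.63, SE 0.10, edgeR adjusted p = 1.17e-05). MMP14, a membrane metalloproteinase activated by FURIN, was second in level per length at 49.1 CPM per kilobase and fell by 0.18 on the log2 scale (SE 0.03, edgeR adjusted p = 9.79e-05). In these 5 genes the groups did not overlap. Counts of RNA do not show whether the proteins were cut.

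Regulators of granule genes were measured as RNA. Of 19 listed 13 were tested, with 5 higher, 3 lower and a median log2 fold change of 0.09. With DESeq2, or if CP+siNC replicate 1 was left out, 3 were called higher and 2 lower, and with library size scaling alone 7 were called higher and 2 lower. CRTC1 and CRTC3, coactivators of CREB, rose by 0.49 (SE 0.08, edgeR adjusted p = 4.13e-06) and 0.49 (SE 0.08, edgeR adjusted p = 7.76e-06) on the log2 scale. CRTC2, of the same family, fell by 0.22 (SE 0.06, edgeR adjusted p = 0.00251), and ATF1, a relative of CREB, fell by 0.24 (SE 0.06, edgeR adjusted p = 0.000989). ATF1 was also second in level per length, at 9.01 CPM per kilobase in CP+siNC. KDM1A, a demethylase in the REST corepressor complex, had the highest level per length, 12.1 CPM per kilobase in CP+siNC, and rose by 0.13 on the log2 scale (SE 0.04, edgeR adjusted p = 0.00399). For these 5 genes the groups did not overlap. REST, the repressor of many neuronal and granule genes, was named after its value was seen. It had 78.5 ± 3.17 CPM in CP+siNC and 74.3 ± 2.20 CPM in CP+siNAT10 (SD, n = 3 each), with a log2 fold change of -0.08 (SE 0.04, edgeR adjusted p = 0.119) and a 95% interval from -0.16 to 0.00.

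The cells were checked against markers of neuroendocrine cells and of the tubule. Of 10 neuroendocrine and neuronal markers 3 were tested. CHGA, INSM1, NEUROD1, ELAVL4 and NCAM1 had at most 7 counts in any library, and STMN2 had 0 in all. SNAP25, a SNARE of exocytosis, was the most abundant, at 16.3 ± 1.41 CPM in CP+siNC and 20.1 ± 1.62 CPM in CP+siNAT10 (SD, n = 3 each; log2 fold change 0.30, SE 0.07, edgeR adjusted p = 0.00119). SYP and SYN1 were at 2.99 and 0.659 CPM in CP+siNC and were not called. Their log2 fold changes were -0.33 and 0.10 (edgeR adjusted p = 0.0978 and 0.829). That of SYP ran from -0.40 to -0.25 over the alternatives. The summed level of the list was 20.1, 21.4 and 19.2 CPM in CP+siNC and 21.5, 25.4 and 23.6 CPM in CP+siNAT10, and without SNAP25 it was 4.57, 3.46 and 3.74 CPM against 3.18, 3.98 and 3.16 CPM. Thus 7 of the 10 markers were at or near 0 in both groups, while SYP, SYN1 and SNAP25 were measured. SNAP25 was higher beside SCG2, and SYP went the other way by a like amount without a call.

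Of 13 markers of the proximal tubule and of epithelium 8 were tested. The brush border and transport markers LRP2, CUBN, SLC34A1, ANPEP and MME had at most 8 counts in any library, so these defining markers were at or near 0, and AQP1 had 12 to 27 counts and was not called. KRT8, the most abundant, and KRT19 were not called (edgeR adjusted p = 0.927 and 0.942). PAX8 rose by 0.59 (SE 0.06, edgeR adjusted p = 1.58e-09) and SLC5A2 by 0.31 (SE 0.09, edgeR adjusted p = 0.00363) on the log2 scale. KRT18 fell by 0.36 (SE 0.03, edgeR adjusted p = 3.79e-10) and GGT1 by 0.28 (SE 0.05, edgeR adjusted p = 9.92e-05). The groups did not overlap for these 4 genes. The summed level of the list was 2070, 2089 and 2033 CPM in CP+siNC and 1991, 1975 and 2011 CPM in CP+siNAT10, and without KRT8 it was 601, 625 and 603 CPM against 547, 540 and 540 CPM. The epithelial keratins were present in all libraries, and the part of these shifts in the SCG2 values was not tested.

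The genes whose profile was nearest to that of SCG2 were sought among the same 12304 tested genes, by the Euclidean distance of log2 CPM centred on the mean of the 6 libraries. The 5 nearest were H2BC5 at a distance of 0.768, SIPA1L2 at 0.888, H2BC12 at 0.928, PLPP3 at 1.02 and IL6R at 1.14. They are other large rises of the same comparison and carry no test here. H2BC5 and H2BC12 are histone H2B genes, with 4.17 ± 0.445 and 4.90 ± 0.641 CPM in CP+siNC and 17.5 ± 1.47 and 15.4 ± 0.269 CPM in CP+siNAT10 (SD, n = 3 each). SIPA1L2, a regulator of RAP GTPases, had 10.9 ± 0.797 and 37.2 ± 1.75 CPM. PLPP3, a lipid phosphatase, had 4.46 ± 0.748 and 15.04 ± 0.659 CPM, and IL6R, a receptor chain for interleukin 6, had 10.04 ± 0.211 and 29.3 ± 0.481 CPM. None of the 5 is on chromosome 2, and none is a granule gene of the lists used here.

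**Figure D5:**
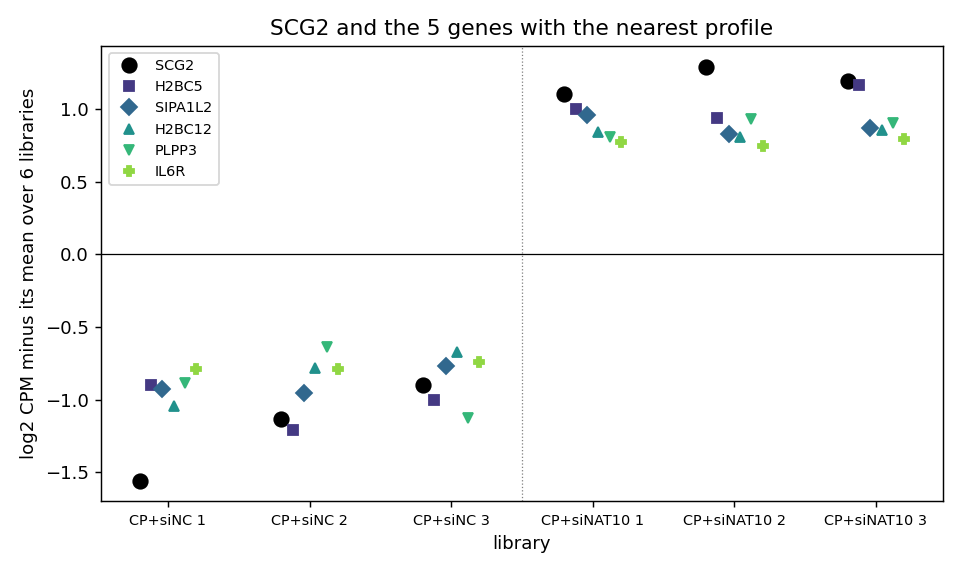
Log2 CPM of SCG2 and the 5 nearest genes in each library, less the mean of each gene over the 6 libraries, with points for single genes. All 6 genes are below 0 in CP+siNC and above 0 in CP+siNAT10, and SCG2 in CP+siNC replicate 1 is the lowest point, at -1.56.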

How the data were processed

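RNA from Cisplatin-treated HK-2 cells was sequenced in 3 libraries per group (CP+siNC and CP+siNAT10), and groups and replicate numbers were taken from the labels. The values the authors deposited are raw counts per gene. Per the labels' processing notes and the Methods, reads were processed with Trimmomatic 0.36, STAR 2.5.3a and featureCounts (Subread 1.5.1) on GRCh38, and edgeR 3.12.1 was used by the authors. The library kit keeps strand and adds molecular identifiers, which per the Methods serve to correct for duplicate reads. Whether the deposited counts had copies merged and strand used is not given in the sources used here, and unmerged copies would be counted as separate reads.

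From these counts, low genes were removed by filterByExpr of edgeR (at least 10 counts in enough libraries and 15 in total), leaving 19874 of 62754 genes to be tested. Libraries were scaled by TMM and compared with the quasi-likelihood test of edgeR 4.0.16 in R 4.3.3, with Benjamini-Hochberg adjustment over all tested genes, and a gene was called at an adjusted p under 0.05. The programs were tested on simulated counts with known changes and the same spread for all genes. That run checks the code and does not give error rates for these data. An exact permutation test of 3 libraries against 3 cannot give a p below 0.1. Pairs of libraries within a group differed by more than sampling noise, with a mean chi-square per gene of 1.73 to 2.54, to which duplicate reads could add, and each library was taken as 1 sample as labelled. The members and gene lists were chosen with earlier results of these data known. Listed genes are named where they were past both limits, were the 2 largest called rises or falls with a mean of at least 1 CPM, or had the 2 highest levels per length, and markers are named throughout, except that some genes covered by this rule are not reported here. The alternatives were RLE and library size scaling, no filter beyond a count above 0, a filter of 1 CPM in 3 libraries, DESeq2 1.42.0, a block for the replicate number, omission of each library in turn, and promoter windows from 200 bases before the start. Promoters came from RefSeq and exon counts from GENCODE 29. Protein sequences were not used here. Plots were drawn with matplotlib 3.10.9.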

Additional observations from a re-analysis of the deposited data

How the results depend on the processing

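SCG2 kept its direction under all 12 alternatives, with a log2 fold change from 2.21 to 2.51, and both ends came from leaving out a CP+siNC library. The other members that had groups apart kept their direction in all 12 as well, while VGF ran from -0.00 to 0.15 and CPD from -0.07 to -0.02. Of the 59 listed genes called, DESeq2 called 44, all of them among the 59, and leaving out a library kept between 46 and 53 of the 59. Of 36 called genes outside the members that the naming rule covers, 29 kept their call under each alternative that tested them, which for DOC2A does not include the filter of 1 CPM in 3 libraries. How many genes were past both limits varied with the filter on low counts. With no filter beyond a count above 0 there were 301 above and 410 below, in place of 189 and 275. With 1 CPM in 3 libraries there were 123 above and 176 below, with fewer genes tested. With the replicate number as a block, 4208 genes were called higher and 4318 lower, and SCG2 was at 2.37. The labels do not say whether the numbers pair the samples. The correlation of deviations of samples with the same number was 0.01, 0.07 and -0.20. For samples with different numbers it ran from -0.22 to 0.20, so these values cannot decide whether the samples were paired. The promoter matches by member were the same in the shorter window, where 1.77%, 21.9% and 6.53% of all windows held TGACGTCA, TGACG and TGANTCA. Depth limits SCG5, with 13 to 38 counts, and leaves PCSK1 and PCSK5 without a comparison.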
